A study of Mus musculus with 16 samples.

Results

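The distal convoluted tubule (DCT) is the short stretch of nephron between the thick ascending limb (TAL) and the connecting tubule. DCT cells were picked by rule from single-cell RNA-seq of mouse kidney: a barcode needed 200 to 7000 detected genes, at most 50% of its UMIs (unique molecular identifiers, each standing for 1 captured RNA) from mitochondrial genes, at least 5 UMIs of Slc12a3 and more of it than of Slc12a1, and no UMI of Cubn, Aqp2, Pecam1, Pdgfrb or Ptprc. This left 2415 cells of 116439 barcodes, or of the 94436 that passed the gene and mitochondrial limits. Slc12a3 and the 6 other genes of the rule chose the cells, so their levels are given as a description and support nothing.

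The study compared BTBR ob/ob mice, a leptin-deficient, obese and diabetic strain called the diabetic nephropathy (DN) group, with BTBR +/+ mice, called control. Each of the 16 libraries came from both kidneys of 1 mouse, with 2 mice for each combination of genotype, sex and age (6 or 12 weeks), so the genotypes were compared over mice and not over cells. The preparations were made for glomeruli and depleted of proximal tubule on Percoll, the papilla was removed beforehand, and the labels call the cells glomerular, so the tubule cells described here are what such a preparation retained. Mice of both genotypes also carried the mTmG reporter and a Cre driven in podocytes, so the controls share these alleles with the DN mice. The reporter mice had been crossed onto BTBR over several generations. Whether residual background was the same in both genotypes was not tested. The ob allele was carried in every cell from conception, and hyperglycaemia, obesity and loss of leptin cannot be told apart in this comparison.

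DCT cells reabsorb sodium chloride through the thiazide-sensitive cotransporter NCC, the product of Slc12a3, which is switched on by the kinases WNK1, WNK4 and SPAK (Stk39) and is held down when KLHL3 and CUL3 mark the WNK kinases for destruction. The early DCT is rich in parvalbumin (Pvalb) and in the magnesium channel TRPM6. Cells of the late DCT carry more of the calcium-handling proteins calbindin (Calb1, S100g) and NCX1 (Slc8a1), and share the epithelial sodium channel ENaC and the cortisol-inactivating enzyme 11β-HSD2 (Hsd11b2) with the connecting tubule.

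Slc12a3 had a median of 77 UMIs per DCT cell (quartiles 21 and 135, highest 454). At the threshold, 51 cells had exactly 5 UMIs of Slc12a3 and 69 barcodes that met the rest of the rule had 4. An Slc12a1 UMI was seen in 162 DCT cells (6.71%). The marker genes that the rule did not use stood with the label. After each cell was thinned to 1000 UMIs to remove differences in depth (2358 of the 2415 cells were deep enough), the share of DCT cells with a Pvalb UMI ran from 51.1% to 87.3% over the libraries with a median of 72.0%. In TAL cells, chosen the same way by Slc12a1, it ran from 0.525% to 5.83% with a median of 2.08%. The DCT shares are to be read against this level, whose source was not tested. The median share was 22.0% against 0.0922% for Trpm6, 26.3% against 2.77% for Klhl3 and 82.4% against 3.70% for Calb1. Of these marker genes S100g separated the segments least, with 60.0% (15.9% to 79.9%) against 16.5% (4.58% to 45.7%), and unthinned with 93.8% against 71.0%. Without thinning, Pvalb was seen in a median of 92.5% of DCT cells and 9.32% of TAL cells. Only 54 DCT cells had no UMI of Pvalb, Trpm6 or Klhl3.

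The libraries held from 39 to 302 DCT cells, and their summed DCT counts ran from 322704 to 4842980 UMIs. The 16 libraries used 2 lists of barcodes: replicate 1 of the 4 female groups used the second list and had shallow DCT cells, with medians of 3680 to 4914 UMIs, against 9910 to 21052 UMIs in the 12 libraries of the first list. Replicate 2 of the male 6-week groups held the fewest DCT cells, 63 in control and 39 in DN. Of the 2415 cells, 2 had a barcode also found among the DCT cells of another library. The mitochondrial share of DCT cells was high in every library, with medians from 31.4% to 40.9%. Lep, mutated in the DN mice, had no UMI in the DCT cells of any library, so it gives no check of genotype here; over all barcodes it had 17 UMIs in control and 6 in DN libraries. The sex-linked genes matched the sex label in 16 of 16 libraries.

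Against all other kept cells, the genes that stood highest in DCT cells included a set that the rule did not name. Levels are counts scaled to a common library size (CPM). For the ratios, here and below, counts were pooled over the 16 libraries, so libraries with more UMIs weigh more. The ratios of pooled CPM were 31.1 for Pvalb (2138 against 68.8 CPM), 17.9 for Trpm6 and 27.8 for the rule gene Slc12a3. They were 17.9 for Abca13, a member of the ABC transporter family, 15.8 for Fxyd6, a regulator of the sodium pump, 13.3 for Sfrp1, a secreted inhibitor of WNT signalling, 12.5 for the transcription factor Sall3 and 10.6 for Ank2, an ankyrin that anchors membrane transporters. Uroc1, an enzyme of histidine breakdown, had a ratio of 15.0 and Cwh43 one of 13.6. Each of these 10 genes was higher in DCT cells than in the other kept cells of the same library in 16 of 16 libraries. This is a description of cells chosen by one of their own genes and not a test. TAL cells, which are among the other kept cells, held Sfrp1 at 884 CPM in control and 541 CPM in DN libraries on average. The pooled DCT cells held 1305 CPM of it. For Ank2 the TAL means were 40.1 and 61.5 CPM, against 62.9 CPM in the pooled DCT cells. A high ratio to all other kept cells therefore does not set a gene apart from the TAL.

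DCT cells made up 0.644% to 4.71% of the kept barcodes in the control libraries and 0.793% to 4.39% in the DN libraries. The means were 2.90% ± 1.30 (SD, n = 8) and 2.53% ± 1.17 (SD, n = 8), and the groups overlapped over most of their range. The difference of -0.376 percentage points was smaller than the spread between libraries (two-sided exact permutation test within sex, age and barcode list, 576 arrangements, p = 0.392; the smallest p the design allows is 0.00347). Paired by replicate number the same difference had an exact permutation p of 0.328, and leaving out 1 library at a time kept it between -0.699 and -0.117. The difference was nearest to 0 without control female 6 weeks replicate 1, the library with the highest share, and farthest without control male 6 weeks replicate 2, the library with the lowest. Of the kept barcodes, 4454 had at least 5 UMIs of Slc12a3. Among those of them that also passed the Slc12a1 condition, the Aqp2 condition removed 1753, far more than Cubn (238), Pecam1 (136), Pdgfrb (116) or Ptprc (111). With at most 20% mitochondrial UMIs allowed, which left 170 DCT cells, the means were 0.409% and 0.284% and the difference was -0.125 points (exact permutation p = 0.351). With Aqp2-positive barcodes kept there were 3882 cells and the difference was -0.412 points (exact permutation p = 0.590).

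The share of DCT cells with a Pvalb UMI, at 1000 UMIs per cell, was 70.4% ± 11.02 (SD, n = 8) in control and 71.5% ± 7.61 (SD, n = 8) in DN. The difference of 1.04 percentage points was well inside the spread between libraries (exact permutation p = 0.767, paired by replicate number 0.648). Unthinned, the shares were 88.4% and 91.4% (difference 3.02 points, exact permutation p = 0.288). The sign of the thinned difference rested on single libraries: it was -1.71 points without control male 6 weeks replicate 2, -0.225 without control female 6 weeks replicate 2, -0.349 without DN female 6 weeks replicate 1 and -0.0697 without DN male 6 weeks replicate 1. Libraries of 1 group differed more than the genotypes did, since the male 6-week controls stood at 80.6% and 51.1%.

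**Figure D1:**
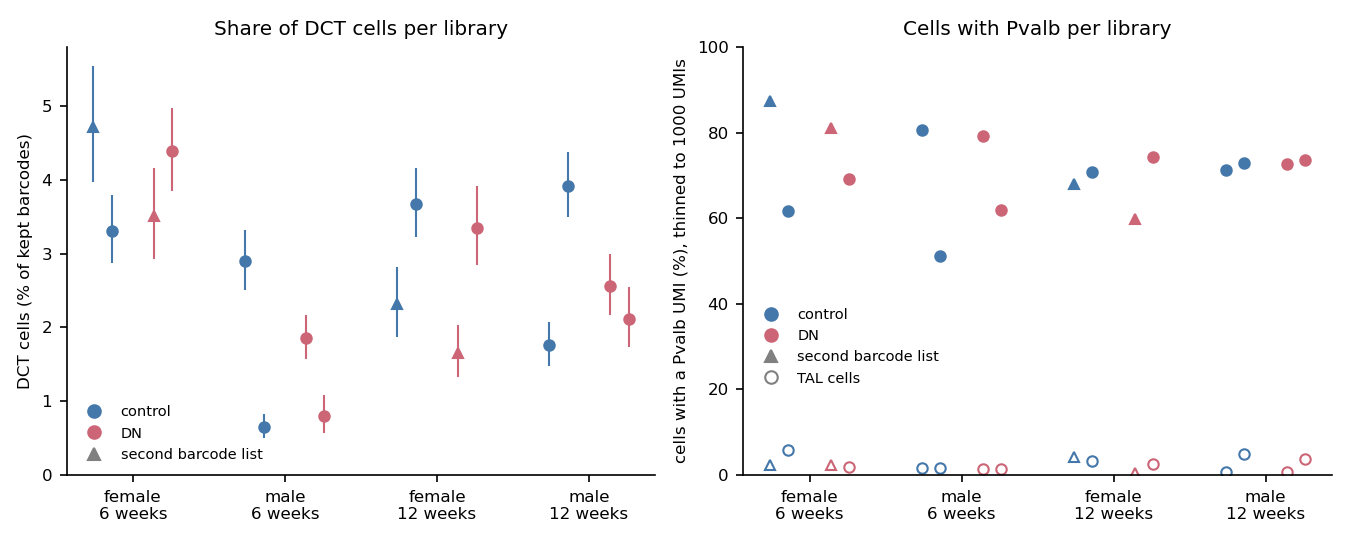
Left, DCT cells as a percentage of kept barcodes in each of the 16 libraries, grouped by sex and age, with 95% exact binomial intervals that cover counting error only. Right, the percentage of DCT cells (filled) and TAL cells (open) with a Pvalb UMI after thinning to 1000 UMIs per cell. Control and DN libraries overlap in both panels, and every DCT value on the right, from 51.1% up, lies far above the TAL values, which reach 5.83%.

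The 2197 DCT cells with a Pvalb UMI and the 218 without differed in more than Pvalb. The comparison used the 10 libraries with at least 10 cells of each kind, 1494 cells with Pvalb and 176 without, summed per library. The sums without Pvalb held 51828 to 510332 UMIs. Because the cells were split by their own counts this is a description with no test, and cells without Pvalb were the shallower kind in 8 of the 10 libraries. Values are mean CPM over the 10 libraries with the median log2 ratio of CPM + 1.

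Cells with Pvalb held far more Egf, the epidermal growth factor precursor, a magnesiotropic hormone made in the DCT: 1373 CPM against 100 CPM, a median log2 ratio of 3.97. Umod, the uromodulin gene typical of the TAL that is also found in the early DCT, stood at 1906 against 355 CPM (2.88). Ckb, the brain-type creatine kinase, stood at 165 against 24.2 CPM (3.16) and Apoe, apolipoprotein E, at 237 against 36.8 CPM (3.03). Gpc3, a cell-surface proteoglycan (3.18), Ank2 (3.10), Wfdc15b (2.98), Ptgfr, the receptor of prostaglandin F2α (2.25), and Fxyd6 (2.09) completed the rule-named genes on this side. The magnesium channel Trpm6 went the same way, at 260 against 115 CPM (1.46, higher in 10 of 10 libraries), as did Ppp1r1a, an inhibitor of protein phosphatase 1, at 905 against 411 CPM (1.27, 10 of 10), Sall3 (0.77, 10 of 10) and Klhl3 (0.53, 10 of 10). Slc12a3 itself was at 6412 against 3501 CPM, which the rule's threshold on Slc12a3 touches.

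Cells without Pvalb held more of some genes that the late DCT shares with the connecting tubule. Hsd11b2 stood at 37.1 CPM with Pvalb and 216 CPM without (-2.45), and Scnn1g, the γ subunit of ENaC, at 33.8 and 159 CPM (-2.25). Scnn1b, the β subunit, was lower with Pvalb in 10 of 10 libraries (56.1 against 131 CPM, -1.33), while Scnn1a, the α subunit, hardly differed (0.13). The calcium-binding S100g stood at 10150 with Pvalb against 29650 CPM without (-1.49) and tissue kallikrein Klk1 at 9008 against 27030 CPM (-1.69). Slc8a1, the sodium-calcium exchanger, was at 280 against 588 CPM and lower with Pvalb in 9 of 10 libraries, whereas Calb1 showed no such order (6816 against 7926 CPM, higher with Pvalb in 4 of 10). Cav1, encoding caveolin-1 (-2.35), the ammonia transporter Rhbg (-1.82), the prostaglandin synthase Ptges (-1.72), Hes1, a NOTCH target (-1.47), Col27a1 (-1.65) and the long noncoding RNA AI838599 (-1.89) were also higher without Pvalb. Of 8 measured members of the aldosterone and ENaC list, 4 were lower with Pvalb in every library and none was higher in every library, with a median log2 ratio of -0.98 over the list. Of 54 nuclear genes for oxidative phosphorylation, 32 were higher with Pvalb in every library and none was lower (list median 0.35). Over all 2422 genes of at least 50 CPM the counts were 163 and 33 and the median was 0.13. Markers of the segments that follow moved with the split as well. The 5 connecting tubule markers, 2 of them lower with Pvalb in every library and none higher, had a median of -1.28, the 2 measured principal cell markers one of -1.34, with Hsd11b2 lower in every library, and the 4 measured intercalated cell markers one of -0.84, with none in 1 direction throughout. Their part in the split was not tested, and late DCT cells and connecting tubule cells cannot be told apart by these genes.

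Cells of at least 2000 UMIs left 5 libraries with 10 cells of each kind, where the median log2 ratio was 6.28 for Egf, 3.13 for Umod, -2.69 for Hsd11b2, -2.58 for Scnn1g and -1.74 for S100g. These libraries are among the 10 that chose the genes, so their direction was fixed by that choice. The libraries differed in the same genes. Control male 6 weeks replicate 2 and DN male 6 weeks replicate 2 had low Pvalb (1173 and 1336 CPM, with control female 6 weeks replicate 2 between them at 1309 CPM), and DN male 6 weeks replicate 2 had the highest Trpv5, the late-segment calcium channel (82.5 CPM), and the highest Scnn1g (116 CPM) of the 16. Control female 6 weeks replicate 1 was at the other end, with 3191 CPM of Pvalb, 1056 CPM of S100g, 8.96 CPM of Slc8a1 and no Trpv5 UMI.

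**Figure D2:**
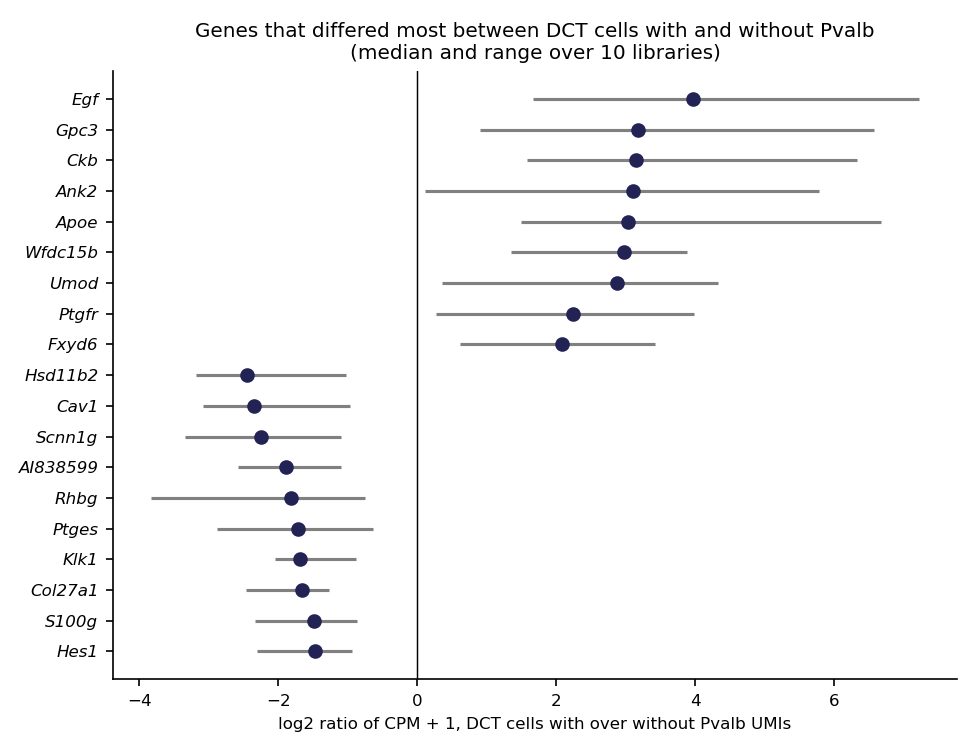
Median (point) and range (line) over 10 libraries of the log2 ratio of CPM + 1 between DCT cells with and without Pvalb UMIs, for the 19 rule-named genes other than Pvalb. The 9 genes on top, led by Egf at 3.97, are higher with Pvalb and the 10 below, led by Hsd11b2 at -2.45, are lower. The choice of genes required the same direction in every library used, so that sameness is no result.

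For the effect of DN, the counts of the DCT cells of a library were summed and 9967 genes were tested with edgeR's quasi-likelihood test, with Benjamini-Hochberg adjustment over all of them and an adjusted p under 0.05 as a call. In such sums, fewer cells of a subtype and less RNA per cell cannot be told apart. Because libraries with the same sex, age and replicate number deviated together, each comparison is also given with the replicate pairs as a block. In females the replicate number also marks the barcode list, so their part of this pattern cannot show pairing beyond the list. At 6 weeks 2 genes were called (0.0201% of those tested) and with the block 112, of which 74 were higher and 38 lower in DN (1.12%). At 12 weeks 13 were called, 2 higher and 11 lower (0.130%), and with the block 106, 50 higher and 56 lower (1.06%). For the mean effect over both ages 57 genes were called, 28 higher and 29 lower (0.572%), and with the block 287, 166 higher and 121 lower (2.88%). Every gene called without the block was also called with it. The counts without the block rested on single libraries. At 6 weeks the 2 calls became 1 without control female 6 weeks replicate 2, 4 without DN male 12 weeks replicate 1 and 13 without DN female 6 weeks replicate 1. At 12 weeks the 13 calls became 2 without DN male 12 weeks replicate 1, 4 without control male 12 weeks replicate 2, 8 without DN female 12 weeks replicate 2 and 22 without DN male 6 weeks replicate 1. Over both ages the 57 became 22 without DN male 12 weeks replicate 1, 23 without control female 6 weeks replicate 2 or control male 12 weeks replicate 2, 26 and 35 without DN female replicate 2 of 6 and of 12 weeks, and 37 without DN female 6 weeks replicate 1. All further CPM values are of these sums, and those of a group are listed as female replicates 1 and 2, then male replicates 1 and 2.

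The clearest change was a fall of Col5a2, which encodes a chain of fibrillar collagen type V (ENSMUSG00000026042, minus strand, chr1:45374321-45503282 in mm10). At 6 weeks it stood at 53.8, 25.1, 39.4 and 17.1 CPM in control and at 9.87, 7.15, 7.37 and 3.30 CPM in DN. At 12 weeks it stood at 35.3, 33.1, 42.9 and 30.3 CPM in control and at 6.54, 6.98, 8.06 and 5.76 CPM in DN. The lowest control library was above the highest DN library at both ages. The log2 fold change was -2.11 ± 0.28 (SE, adjusted p = 0.00155) at 6 weeks, -2.28 ± 0.26 (adjusted p = 1.19e-04) at 12 weeks and -2.19 ± 0.19 (adjusted p = 7.68e-07) over both. The 6-week call was lost when cells with Aqp2 UMIs were kept (log2 fold change -1.88, adjusted p = 0.127).

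Asb11, an adaptor of a ubiquitin ligase complex (ENSMUSG00000031382, chrX:164436994-164459170 in mm10, plus strand), rose. Its level in DCT cells was 8.89 times that in other kept cells. At 6 weeks it was at 15.7, 27.1, 11.5 and 5.40 CPM in control and 76.5, 61.2, 35.6 and 16.5 CPM in DN, and at 12 weeks at 4.71, 11.7, 5.97 and 7.12 against 6.54, 20.6, 21.2 and 17.3 CPM. The groups overlapped at both ages, but the DN library was the higher one in 8 of 8 pairs. The log2 fold change was 1.52 ± 0.25 at 6 weeks (adjusted p = 0.0170), 1.20 ± 0.27 at 12 weeks (adjusted p = 0.0847, with the block 0.00430) and 1.36 ± 0.18 over both (adjusted p = 4.79e-04). The 6-week call did not survive the removal of control female 6 weeks replicate 1 (adjusted p = 0.0515), control female 6 weeks replicate 2 (0.218) or DN male 6 weeks replicate 1 (0.204). It was also lost at a minimum of 10 UMIs of Slc12a3 (0.0625), in the first barcode list alone (0.0765), without a term for the barcode list (0.0776) and with Aqp2-positive cells kept (0.127), while the call over both ages was kept in each of the 26 settings.

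Of the other genes called lower in DN over both ages, Slit2, a secreted guidance ligand (log2 fold change -0.59, adjusted p = 0.00769), ran from 91.5 to 141 CPM in the control libraries and from 58.8 to 81.5 CPM in DN, with no overlap. Adamtsl2, a protein that binds the fibrillin matrix (-1.29, adjusted p = 0.00197), ran from 11.9 to 35.3 CPM in control and from 4.83 to 22.2 CPM in DN. Padi2, an enzyme that turns arginine of proteins into citrulline (-0.82, adjusted p = 0.00527), was lower in DN in 8 of 8 pairs; it overlaps Gm13031 on the other strand, and whether counting used strand is not given in the sources used here. Sfrp1 fell by 0.45 on the log2 scale (adjusted p = 0.0448) and was lower in DN in 8 of 8 pairs. That call was lost in 15 of 26 settings and without any 1 of 13 libraries (adjusted p up to 0.172, without control female 6 weeks replicate 2). Sfrp1 had a ratio of 13.3 to all other kept cells. Control TAL cells held 884 CPM of it on average against 1305 CPM in the pooled DCT cells, so it does not set DCT cells apart from the TAL. Igfbp5, a binding protein of insulin-like growth factors, was called at 12 weeks (-1.24 ± 0.17, adjusted p = 0.00101), where the controls stood at 127, 123, 103 and 108 CPM and the DN libraries at 65.4, 53.5, 55.2 and 27.1 CPM. Its DCT level was however only 0.141 of that in other kept cells.

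Of the genes called higher in DN over both ages, Decr1, an enzyme of the oxidation of unsaturated fatty acids (0.64 ± 0.10, adjusted p = 0.00264), was also called at 12 weeks. There the controls stood at 58.9, 38.8, 36.9 and 36.8 CPM and the DN libraries at 58.8, 67.5, 70.4 and 70.2 CPM. A difference of the Decr1 effect between the ages was not called. Its call over both ages was kept in each of the 26 settings and that at 12 weeks (0.78, adjusted p = 0.0176) was lost in 8 of 25. Acot2, a mitochondrial acyl-CoA thioesterase, rose by 0.61 (adjusted p = 0.0271) and was higher in DN in 8 of 8 pairs; its call was lost in 10 of 26 settings, 7 of them without a single library (adjusted p from 0.0598 to 0.157, the highest without control female 12 weeks replicate 2). Slc30a2, the zinc transporter ZnT2 (1.06 ± 0.19, adjusted p = 0.00888), was higher in 8 of 8 pairs and ran from 9.04 to 44.8 CPM in control and 24.7 to 54.3 CPM in DN. That call was lost without control female 6 weeks replicate 2 (adjusted p = 0.0639), without DN female 6 weeks replicate 2 (0.0667) and without the barcode-list term (0.0582). Myof, myoferlin, a protein of membrane repair (1.08 ± 0.17, adjusted p = 0.00192), ran from 5.43 to 14.0 CPM in control and from 17.3 to 35.7 CPM in DN, with no overlap. Sult1a1, a sulfotransferase (0.98, adjusted p = 0.00264), was higher in 6 of 8 pairs; the other two were those of the second barcode list. Csrp1, a LIM-domain protein (0.83, adjusted p = 0.0105), and Arhgdig (1.38, adjusted p = 0.00550; 0.0614 without control female 6 weeks replicate 2) rose as well. Cyb5rl, related to cytochrome b5 reductase, was 8.45 times higher in DCT than in other cells and rose by 0.60 (adjusted p = 0.0303, 8 of 8 pairs), a call lost in 9 of 26 settings, 7 of them without a single library (adjusted p up to 0.167, without control female 6 weeks replicate 2).

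Of the low-count genes, Gdf15, a stress-induced cytokine (2.86 ± 0.48, adjusted p = 0.00376), stood at 2.24, 0.875, 3.28 and 0 CPM in 6-week and 0, 0, 0 and 1.98 CPM in 12-week controls, against 0, 11.8, 9.21 and 6.60 and 3.27, 4.32, 16.6 and 4.60 CPM in DN. It had 163 UMIs in all DCT cells together. Tnfrsf12a, the receptor of the cytokine TWEAK (1.75 ± 0.32, adjusted p = 0.00852), and Fstl3, a follistatin-like binder of activins (1.07, adjusted p = 0.0141), were also called. The calls of Gdf15 and Tnfrsf12a over both ages were lost without control female 6 weeks replicate 2 (adjusted p = 0.0571 and 0.126) and without DN female 6 weeks replicate 2 (0.0667 for each). Without DN male 12 weeks replicate 1 Gdf15 was at 0.0502, and without DN female 12 weeks replicate 2 Tnfrsf12a was at 0.0803. Fstl3 lost its call without control female 6 weeks replicate 2 (0.0827), control male 12 weeks replicate 2 (0.0631), DN female 12 weeks replicate 2 (0.0712) or DN male 12 weeks replicate 1 (0.0542).

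**Figure D3:**
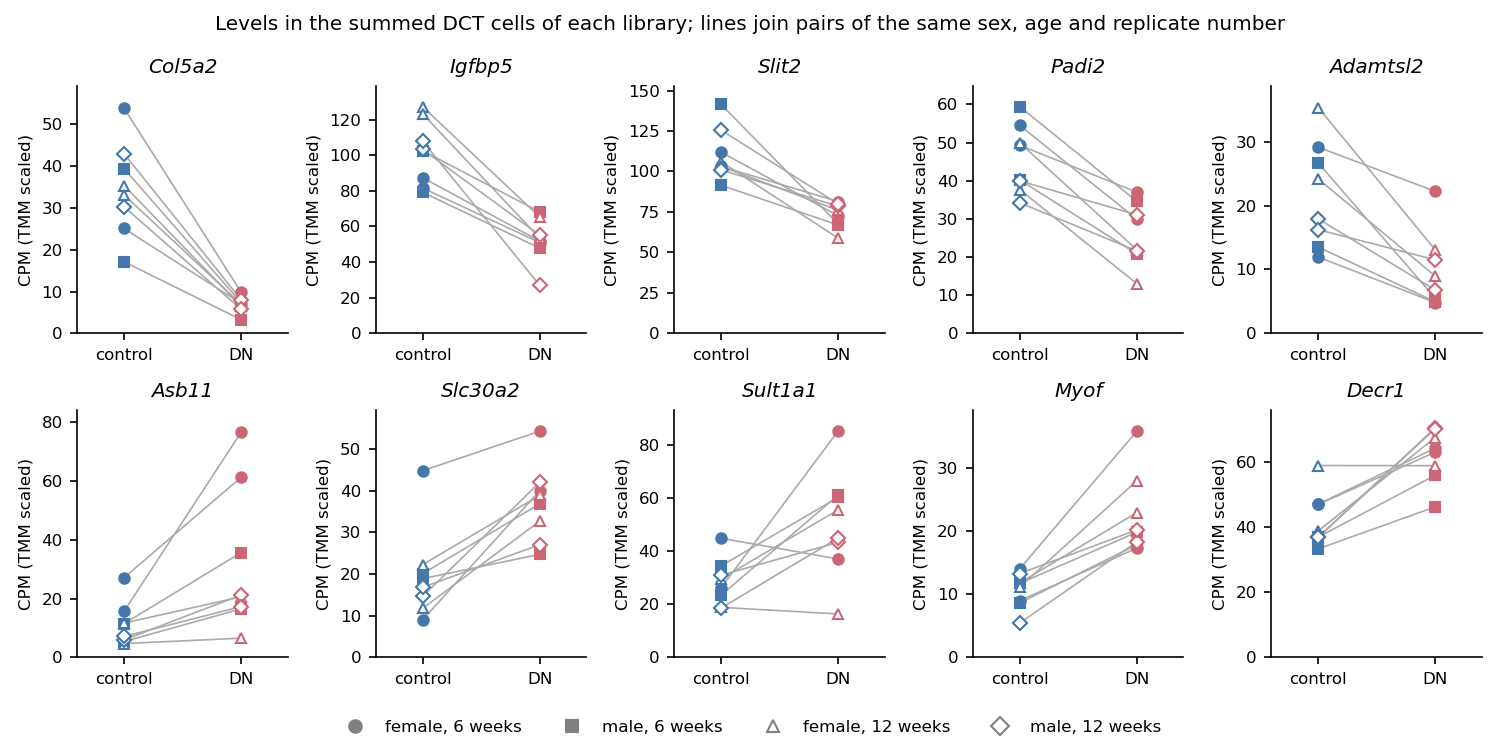
CPM in the summed DCT cells of each library for 5 genes lower (upper row) and 5 genes higher (lower row) in DN, with a grey line joining each control and DN library of the same sex, age and replicate number (8 pairs). Col5a2, Igfbp5, Slit2, Padi2 and Adamtsl2 fall in 8 of 8 pairs, Asb11, Slc30a2 and Myof rise in 8 of 8, Decr1 rises in 7 of 8 and Sult1a1 in 6 of 8.

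Many called genes stood lower in DCT cells than in the other kept cells, which does not show where their RNA came from. Of the 57 genes called over both ages, 24 had less than 0.5 times the level of the other kept cells in DCT cells, 18 of them among the lower genes, and of the 13 called at 12 weeks 10 did, where 12.5% of all 9967 tested genes lay under that level. At 6 weeks neither of the 2 calls did. With the block the shares were 32.1% of 112 at 6 weeks, 42.5% of 106 at 12 weeks and 25.8% of 287 over both ages. Genes of more than 2 times the level of the other cells were 3.54% of those tested and 15.8% of the 57 (17.1% of the 287 with the block). Kap, the androgen-regulated protein of proximal tubule, was called lower (-2.55, adjusted p = 0.00176) at 0.0592 of the level in other cells, and Ugt2b38 and Keg1 were called lower with it. Of the 10 proximal tubule markers, Cubn was at 0 by the rule, 9 were detected, and their summed level in DCT cells had a median of 708 CPM in control (78.4 to 1366 CPM) and 237 CPM in DN (89.8 to 633 CPM). Summed medians in control and DN were 1805 and 1779 CPM for 6 TAL markers, 27320 and 24590 CPM for 5 connecting tubule markers, 190 and 120 CPM for 6 principal cell markers with Aqp2 at 0, and 390 and 311 CPM for 6 intercalated cell markers. They were 34.2 and 20.2 CPM for 5 podocyte markers, 8.92 and 4.21 CPM for 6 endothelial markers with Pecam1 at 0, 7.18 and 10.3 CPM for 6 mesangial and smooth muscle markers with Pdgfrb at 0, 1.93 and 2.29 CPM for 6 immune markers with Ptprc at 0, and 1.27 and 0.902 CPM for 5 red blood cell markers with Alas2 at 0. Single markers of these cells were called too. Fxyd4, a principal cell gene, was called lower at 12 weeks (-1.86, adjusted p = 0.0121; 30.6, 19.5, 19.0 and 26.3 CPM in control, 9.81, 5.32, 3.39 and 9.79 CPM in DN), a call lost in 6 of 25 settings, among them those without control female, control male or DN female replicate 2 or DN male replicate 1 of 12 weeks (adjusted p = 0.0683, 0.136, 0.0543 and 0.195). Foxi1, a transcription factor of intercalated cells, was called lower over both ages (-1.34, adjusted p = 0.00852) and was lower in 8 of 8 pairs. Its call was lost in 4 of 26 settings, among them those without control or DN female 6 weeks replicate 2 (0.328 and 0.151) and with Aqp2-positive cells kept (0.479). With the block over both ages, 4 of 9 tested proximal tubule markers (Kap, Lrp2, Gatm and Slc34a1) were lower, Miox with them at 12 weeks, as was the intercalated Slc26a4, and the TAL marker Ptger3 was higher (0.70, adjusted p = 0.0340). The podocyte genes Podxl, Cdkn1c and Synpo were called higher at 6 weeks with the block (adjusted p = 0.00366, 0.0397 and 0.00655), where DN female replicate 2 held 81.9, 30.7 and 18.0 CPM and the other 6-week DN libraries at most 9.87, 0 and 1.23 CPM. The part of these cells in the called genes was not tested.

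Hsd11b2 fell by 1.83 at 12 weeks (adjusted p = 0.0121; 115, 90.1, 75.5 and 99.1 CPM in control, 36.0, 28.6, 18.7 and 28.8 CPM in DN) at 0.0551 of the level in other cells. It was called over both ages as well (-1.58, adjusted p = 0.00197) and, with the block, at 6 weeks (-1.30, adjusted p = 2.39e-04). Its 12-week call was lost without control male 12 weeks replicate 2 (adjusted p = 0.109), DN female 12 weeks replicate 2 (0.0705) or DN male 12 weeks replicate 1 (0.182), by DESeq2 (0.252), without the barcode-list term (0.0889), in the first barcode list alone (0.0581) and with Aqp2-positive cells kept (0.104). The call over both ages was lost by DESeq2 alone (0.0522).

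The other genes named at 12 weeks were all called lower, and each call was lost in some settings. They were Keg1 (-2.27, adjusted p = 0.00145), lost in 2 of 25, Cyp4b1, a cytochrome P450 (-2.84, adjusted p = 0.0225), lost in 7, Npy, neuropeptide Y (-3.49, adjusted p = 0.0446), lost in 9, Ugt2b38 (-2.15, adjusted p = 0.0455), lost in 10, Cdo1, cysteine dioxygenase (-0.77, adjusted p = 0.0359), lost in 11, and Angptl7, a secreted angiopoietin-like protein (adjusted p = 0.0268), lost in 10. Without DN male 12 weeks replicate 1 all 6 were lost, and without control male 12 weeks replicate 2 all but Keg1, with adjusted p from 0.0533 to 0.665 and from 0.112 to 0.768. Npy stood at 14.1, 2.99, 4.35 and 28.9 CPM in 12-week controls and 9.81, 0.332, 0.424 and 1.15 CPM in DN, and Cyp4b1 at 4.71, 4.07, 27.7 and 37.8 against 0, 0.997, 0.849 and 8.63 CPM. Cdo1 stood at 132, 155, 155 and 150 CPM in 12-week controls and 62.1, 86.4, 91.2 and 99.6 CPM in DN. Angptl7 had 72 UMIs in all, with 9.42, 1.09, 5.97 and 6.13 CPM in 12-week controls and none in DN. Among genes called with the block alone, Hist1h1c, a linker histone (0.89, adjusted p = 7.52e-04), Ftl1, ferritin light chain (0.51), Prss23 (0.63), Gpx6 (0.93) and S100a11 (0.60) were higher and Mmd (-1.23) and Phactr1 (-0.73) lower at 6 weeks. At 12 weeks Ptgds, a prostaglandin D synthase (1.56, adjusted p = 8.94e-04), Slc38a2, an amino acid transporter (0.69), and Srl (1.44) were higher, and Acsm2 (-1.91) and Iigp1 lower. Cd63 was called higher with the block at 6 weeks and over both ages, and Ank2 and Cyb5rl at 12 weeks. Iigp1, an interferon-induced GTPase, was at 93.4 CPM in control male replicate 1 and at most 4.89 CPM in the other 12-week libraries.

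All 20 genes of the NaCl cotransport and WNK-SPAK list were tested, and none was called at 6 weeks, at 12 weeks or over both ages, with list medians of -0.07, -0.01 and -0.03 on the log2 scale against 0.003, 0.007 and 0.005 over all genes. Since 0.0201%, 0.130% and 0.572% of all genes were called, the lack of a call among 20 genes is no result about this list, and the same holds for the other lists of 10 to 22 tested genes that follow. With the block 1.12%, 1.06% and 2.88% of all genes were called at 6 weeks, at 12 weeks and over both ages, the shares against which the calls with the block are to be read. Wnk1 ran from 2974 to 4144 CPM in control and from 2934 to 3814 CPM in DN, and Wnk4 from 293 to 493 and from 324 to 417 CPM. Stk39 (56.5 to 101 CPM in control, 95.7 to 119 CPM in DN) and Cul3 (84.8 to 117 and 85.0 to 130 CPM) were not called either. With the block, Fxyd2, the γ subunit of the sodium pump, rose at both ages (0.37, adjusted p = 0.0301, and 0.35, adjusted p = 0.0430) and over both (0.36, adjusted p = 6.33e-04; 0.635 without the block), higher in 8 of 8 pairs. As a description, since the rule selects on it, Slc12a3 stood at 7301, 5961, 7090 and 6292 CPM in 6-week controls and 4942, 5906, 6211 and 5702 CPM in DN, and at 4844, 7035, 6538 and 6620 against 3808, 6185, 5854 and 6187 CPM at 12 weeks.

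Of 14 magnesium genes 13 were tested and none was called without the block, which at 0.0201% to 0.572% of all genes says nothing about magnesium transport. Trpm6 stood between 125 and 289 CPM in control and 108 and 345 CPM in DN, with a log2 fold change of 0.10 ± 0.14 over both ages. With the block, Pcbd1, an enzyme of tetrahydrobiopterin recycling, rose at 6 weeks (0.39, adjusted p = 0.0429) and over both ages (0.31, adjusted p = 0.00654), and Slc41a1, a magnesium exporter, fell over both ages (-0.51, adjusted p = 0.0477). Of 14 calcium and late-segment genes 13 were tested and none was called without the block. With it, where 1.12% of all genes were called at 6 weeks, Kl, the klotho co-receptor of FGF23 (-0.62, adjusted p = 0.00622), and Vdr, the vitamin D receptor (-0.47, adjusted p = 0.0205), fell at 6 weeks, and S100g, itself a vitamin D target, rose (0.79, adjusted p = 0.0301). Kl stood at 652, 1919, 1561 and 3056 CPM in 6-week controls and at 491, 1122, 703 and 2870 CPM in DN. Vdr was lower in DN in 8 of 8 pairs over both ages (-0.40, adjusted p = 0.00116 with the block, 0.226 without). S100g was higher in 4 of 4 pairs at 6 weeks and in 2 of 4 at 12 weeks. Over both ages Kl (-0.48, adjusted p = 8.33e-04) and S100g (0.47, adjusted p = 0.0435) were called with the block too.

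Of 13 aldosterone and ENaC genes 12 were tested, and without the block only Hsd11b2 was called. The ENaC subunits overlapped between the groups: Scnn1a ran from 172 to 284 CPM in control and from 163 to 342 CPM in DN, and Scnn1g from 2.24 to 88.2 and from 9.87 to 116 CPM. With the block, Sgk1, the aldosterone- and glucocorticoid-induced kinase, rose at 6 weeks (0.96, adjusted p = 0.0222; 0.185 without), from 47.1, 17.8, 13.9 and 7.20 CPM in control to 64.2, 25.7, 35.0 and 37.9 CPM in DN, at 0.0875 of the level in other cells. Kcnj1, the potassium channel ROMK, fell over both ages with the block (-0.28, adjusted p = 0.00654; 0.318 without) and was lower in 8 of 8 pairs.

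**Figure D4:**
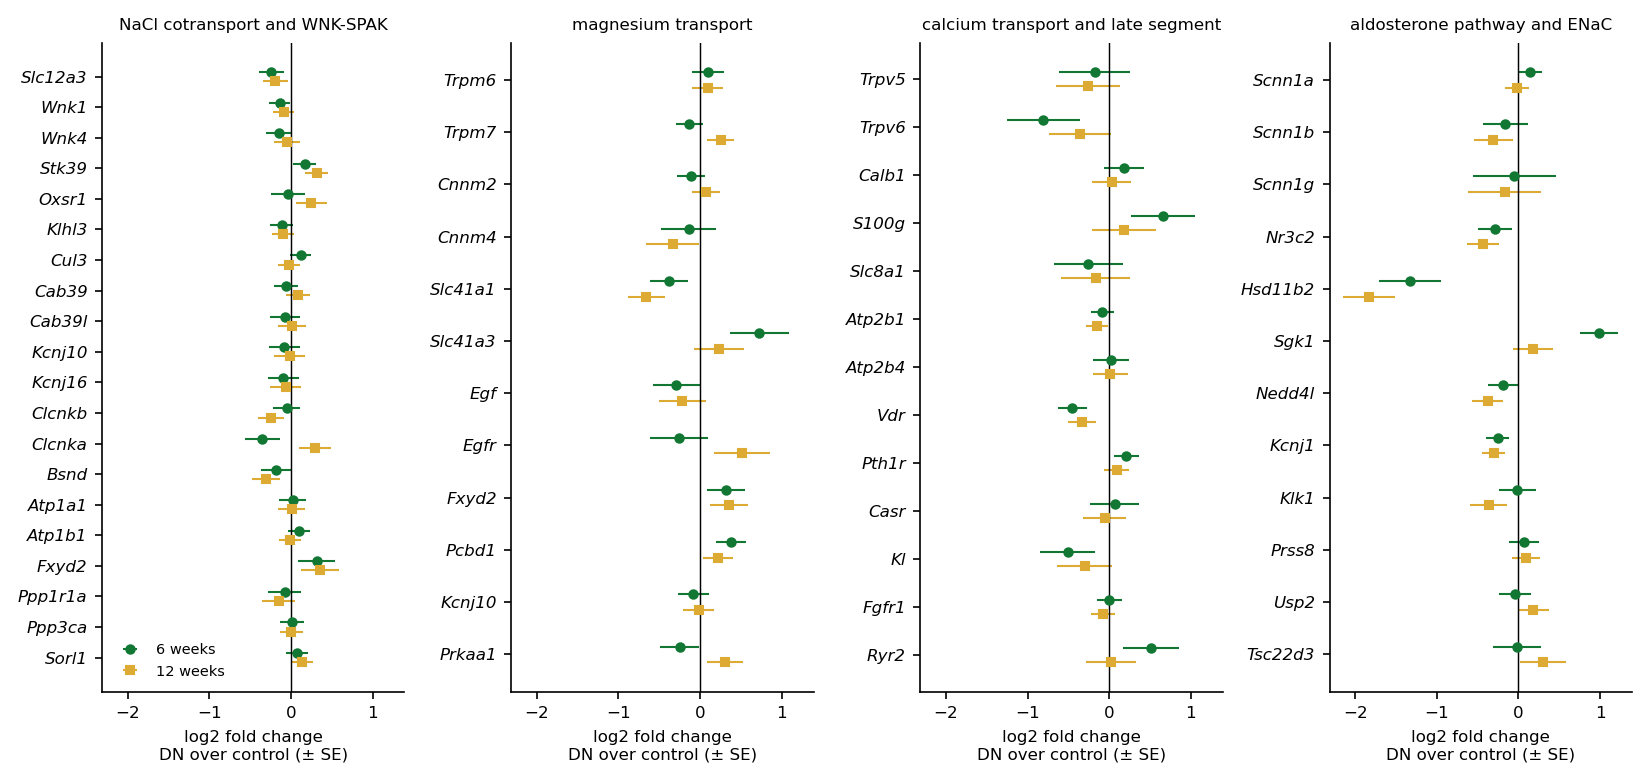
Log2 fold change of DN over control (point) with its SE (line) at 6 weeks (circles) and 12 weeks (squares), without the block, for members of 4 transport lists, with 1 tested magnesium gene not drawn. Nearly all points lie near 0, and Hsd11b2 at 12 weeks, with -1.83, is the only call at the adjusted p threshold.

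Txnip, an inhibitor of thioredoxin and of glucose uptake that is known to be induced by glucose, was lower in DN at 6 weeks: 235, 744, 367 and 313 CPM in control against 133, 322, 211 and 170 CPM in DN, with every DN library below its pair. The log2 fold change was -0.97 with the block (adjusted p = 6.57e-07), and without the block the adjusted p was 0.513. At 12 weeks it was -0.19 (adjusted p = 0.495 with the block), and the difference between the ages was called with the block (0.78). Txnip overlaps Gm15441 on the other strand. Of 24 genes of glucose uptake and glycolysis 22 were tested, and over both ages Txnip and Pfkp, a phosphofructokinase (0.35, adjusted p = 0.0240), were called with the block and none without. Of the 54 nuclear oxidative phosphorylation genes 53 were tested, with 52, 48 and 51 above 0 at 6 weeks, 12 weeks and over both, list medians of 0.14, 0.08 and 0.11, and 50.4%, 51.4% and 51.1% of all genes above 0 beside them. None was called without the block, and 4 were with it over both ages, where 2.88% of all genes were called (Atp5c1, Atp5g3, Uqcrq and Ndufb9, each between 0.23 and 0.27). None of the 13 mitochondrially encoded subunits was called without the block, with a median of -0.02 over both ages, and with it mt-Nd4l fell (-0.24, adjusted p = 0.0202).

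Of 17 genes of lipid uptake and PPAR response 13 were tested. Acot2 was the only call without the block. With the block Fabp3, a fatty acid binding protein, rose at 6 weeks (0.76, adjusted p = 4.93e-04) while Lpl, lipoprotein lipase, fell at 12 weeks (-0.65, adjusted p = 0.00287). Fabp3 stood in DCT cells at 4.21 times the level of all other kept cells. TAL cells held more of it, at 699 CPM in control and 722 CPM in DN on average, against 541 CPM in the pooled DCT cells. Lpl stood at 292, 406, 368 and 327 CPM in 12-week controls and 235, 232, 177 and 273 CPM in DN. Acot1 rose at 12 weeks with the block (1.87, adjusted p = 0.00774). Fabp3, Lpl and Acot1 were called with the block over both ages as well (0.56, -0.30 and 1.02), and Acot2 at 12 weeks (0.80, adjusted p = 0.0122). Of 16 NRF2 response genes 12 were tested and none was called without the block. With the block Gclc, the rate-limiting enzyme of glutathione synthesis, fell at 6 weeks (-0.50, adjusted p = 0.00978) and at 12 weeks (-0.41, adjusted p = 0.0289), in 8 of 8 pairs, and Nqo1, a quinone reductase, rose over both ages (0.40, adjusted p = 0.0370), so 2 targets of the same response went opposite ways.

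Of 22 immediate early and dissociation-stress genes 21 were tested. Dusp1, a phosphatase that switches off MAP kinases, was called higher at 12 weeks (1.46 ± 0.25, adjusted p = 0.0121), with 11.8, 15.7, 11.9 and 11.5 CPM in control and 22.9, 42.5, 39.0 and 28.2 CPM in DN. At 6 weeks its log2 fold change was -0.02, with 47.1, 37.3, 46.4 and 18.9 CPM in control and 66.7, 42.5, 29.5 and 23.1 CPM in DN, so the 12-week controls were the low group. With the block Dusp1 (0.71), Gadd45b (0.98) and Junb (0.63) rose and Ier3 fell (-0.45, adjusted p = 0.00195) over both ages, and at 6 weeks Ier3 fell (-0.53) and Atf3, with 79 UMIs in all, rose (2.80, adjusted p = 0.0418). Dusp1 overlaps Ergic1 on the other strand, and its 12-week call was lost without control male 12 weeks replicate 2 (adjusted p = 0.109), DN female 12 weeks replicate 2 (0.122) or DN male 12 weeks replicate 1 (0.182), or without the barcode-list term (0.0517). Of 20 tubule injury genes 10 passed the count filter and none was called without the block. Of these 10, 8 had a log2 fold change above 0 at 6 weeks, 7 at 12 weeks and 8 over both ages. The list medians were 0.86, 0.255 and 0.59. Of all tested genes 50.4%, 51.4% and 51.1% were above 0. The list as a whole was not tested. With the block Krt8 rose (0.51, adjusted p = 0.0369) and Clu fell (-0.47, adjusted p = 0.00765) at 6 weeks, Clu fell at 12 weeks (-0.39, adjusted p = 0.0272), and both were called over both ages (0.44 and -0.43). Clu, clusterin, known to rise in injured tubules, ran from 876 to 2015 CPM in control and from 590 to 1361 CPM in DN.

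Of 14 proliferation genes 11 were tested, and only 1 of the 14 reached 50 CPM in the Pvalb split. None was called without the block, where 0.130% of all genes were at 12 weeks. With the block, which called 1.06% of all genes, Top2a (4.57, adjusted p = 0.0161), Cenpf (2.73, adjusted p = 0.0119), Birc5 (3.79, adjusted p = 0.0289) and Stmn1 (1.48, adjusted p = 0.00774), genes of the S, G2 and M phases, and the G1 cyclin Ccnd1 (0.64, adjusted p = 0.0339) rose at 12 weeks. Ccnd1 was called with the block at 6 weeks too (0.74, adjusted p = 0.0136), and Ccnd1, Cenpf, Stmn1 and Birc5 over both ages. Top2a stood at 0, 0.271, 0 and 0 CPM in control and 29.4, 1.33, 8.49 and 1.15 CPM in DN at 12 weeks, while at 6 weeks control female replicate 2 held 20.7 CPM. It had 175 UMIs in all DCT cells together. Of 18 clock genes 15 were tested: Bhlhe40, a repressor in the clock, was called higher over both ages (0.77, adjusted p = 0.0360), a call lost in 12 of 26 settings, 8 of them without a single library (adjusted p up to 0.494, without control female 6 weeks replicate 2), and with the block Nr1d1, encoding REV-ERBα, fell at 12 weeks (-1.29, adjusted p = 0.00638) and over both ages (-0.78), Bhlhe40 rose at 6 weeks (1.01, adjusted p = 0.0454) and Hlf rose over both ages (0.72, adjusted p = 0.0388). The hour of kidney removal is not given in the sources used here.

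Of 14 DCT transcription factors 12 were tested, none was called without the block, and with it Tfap2b, which helps to form the distal nephron, fell over both ages (-0.36, adjusted p = 0.00755). Of 20 hormone and growth factor receptors 14 were tested with none called without the block (0.572% of all genes over both ages). With it (2.88%), besides Kl and Vdr, Prlr, the prolactin receptor, was lower over both ages (-2.04, adjusted p = 0.0174; 0.0555 without) and in 8 of 8 pairs, with 86 UMIs in all. The glucocorticoid list had 14 of 14 tested and none called without the block. With it Mt1, metallothionein 1, rose at 6 weeks (0.56, adjusted p = 0.0153), from 2826, 1161, 1172 and 747 CPM to 2748, 2079, 2089 and 1087 CPM, and Cdkn1a, the cell-cycle inhibitor p21, rose over both ages (0.85, adjusted p = 0.0129). Sostdc1, a secreted antagonist of BMP and WNT signals in none of these lists, rose by 0.51 over both ages with the block (adjusted p = 5.78e-05) and was higher in 8 of 8 pairs.

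Whether the DN effect differed between the ages was tested as an interaction. No gene was called without the block, and DESeq2 called 1. Of the 9967 genes tested without the block, 272 had an unadjusted edgeR p under 0.05, a smaller share than 0.05. With the block 10 were called (0.100% of those tested). Without DN female 6 weeks replicate 1, 7 were called without the block. The 10 called with the block included Txnip (0.78, adjusted p = 0.0100), Dusp1 (1.44, adjusted p = 0.0100), Ypel5 (1.10, adjusted p = 0.0149) and Pdk4, the kinase that inhibits pyruvate dehydrogenase (1.69, adjusted p = 0.0257). Pdk4 stood at 11.2, 52.2, 11.9 and 9.003 CPM in 6-week controls against 4.94, 30.5, 3.07 and 11.5 CPM in DN, and at 9.42, 7.06, 3.80 and 11.3 against 13.1, 10.97, 12.7 and 19.0 CPM at 12 weeks. The other 6, Aqp1, Podxl, H2-Q6, Synpo, Dpp4 and Plat, had log2 differences from -6.51 to -3.82, and of these Podxl and Synpo are podocyte genes and Aqp1 and Dpp4 proximal tubule genes. Podxl ranged from 0.665 to 122 CPM over the libraries. In controls, 12 against 6 weeks gave 1 call, Dusp1 (-1.51, adjusted p = 0.0362; 0.0100% of genes tested), which was lost without any 1 of 7 libraries, among them all 4 controls of 12 weeks.

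Between females and males, averaged over genotype and age, 53 genes were called, 20 higher and 33 lower in females (0.532%). All libraries of the second barcode list were female. With the barcode-list term this comparison therefore rested on libraries of the first list, which in females are those of replicate 2. With the control and DN libraries of each pair summed, so that a pair counted once, 36 were called from 8 sums. The count became 26 without control female 6 weeks replicate 2 or DN female 12 weeks replicate 2, 27 without control female 12 weeks replicate 2 and 35 without DN female 6 weeks replicate 2. In DCT cells 26 of the 53 had less than 0.5 times the level of other cells, against 12.5% of all tested genes, among them Kap, Cyp4b1, Aqp1 and Slc22a6 on the male side. Ugt2b38 (-4.83, adjusted p = 6.11e-07) was lower in females, a call kept in 22 of 22 settings. Keg1 (-1.51, adjusted p = 0.00317) was lower in females too, a call lost in 2 of 22. Both genes were also called lower in DN. Acy3 (-1.94) and Acsm2 (-1.89) were lower in females, and Ces1f had no UMI in the 8 female libraries against 1.23 to 20.1 CPM in the male ones. Of the intercalated markers Foxi1 (1.21) and Slc26a4 (1.53) were higher in females. Of the 9 tested proximal tubule markers 0 were above 0 (list median -1.28). Kap, Gatm (-1.28) and Slc34a1 (-1.11) were called lower in females, where 0.532% of all genes were called. Away from the X-linked Eif2s3x and Kdm6a, genes higher in female DCT cells included Glul, glutamine synthetase (0.93 ± 0.11, adjusted p = 2.02e-05), at 108 and 92.7 CPM in 6-week control females against 35.3 and 30.6 CPM in males. At 12 weeks the values were 42.4 and 42.3 against 29.3 and 29.9 CPM. Mir670hg, a noncoding host gene 20.2 times higher in DCT than in other cells, was higher in females by 1.01 (adjusted p = 2.03e-04), as were Dcdc2a (1.06, adjusted p = 0.00166), Crim1, a BMP-binding membrane protein (0.68, adjusted p = 0.00412), Zfp36l1 (0.89), Man2b2 (0.76) and Cyp4a14 (4.27), the last with 98 UMIs in all. On the male side Ltc4s, leukotriene C4 synthase, 4.48 times higher in DCT than in other cells, differed by -0.79 (adjusted p = 0.00634), with 116 and 90.1 CPM in 6-week control females against 194 and 238 CPM in males. In the 12-week controls it was at 259 and 176 against 244 and 157 CPM, where the sexes overlapped. The call of Ltc4s was lost without control or DN female 12 weeks replicate 2 (adjusted p = 0.0575 and 0.0739), that of Dcdc2a without the latter (0.0979) and that of Crim1 without control female 6 weeks replicate 2 (0.103), and all 3 without the barcode-list term, as was that of Mir670hg (0.100). With the pairs summed the calls of Ltc4s (adjusted p = 0.370), Crim1 (0.206) and Kdm6a (0.0680) were lost, and those of Glul, Mir670hg and Dcdc2a were kept. Slc26a4 lost its call in 16 of 22 settings, Man2b2 in 9, Aqp1 in 7, Foxi1 in 6, Zfp36l1 in 5, Acsm2 in 3, and Cyp4b1 and Slc22a6 in 2 each. Among these, without control female 6 weeks replicate 2 the adjusted p was 0.532 for Foxi1, 0.185 for Man2b2, 0.110 for Cyp4b1, 0.0917 for Slc22a6 and 0.0825 for Acsm2, without control female 12 weeks replicate 2 it was 0.247 for Aqp1, and without DN female 12 weeks replicate 2 it was 0.248 for Zfp36l1. No gene was called for a DN effect that differed between the sexes, with or without the block, and DESeq2 called 0. Of the 9967 genes tested without the block, 162 had an unadjusted edgeR p under 0.05, a smaller share than 0.05.

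The neighbouring TAL cells, 2753 cells chosen with Slc12a1 in place of Slc12a3, served to ask which DN effects differed between the segments, by an interaction fitted over both kinds of cells. Of 10807 genes 38 were called, 25 with a more positive difference in DCT cells and 13 with a more negative one (0.352%), and DESeq2 called 13. The count became 12 without control female 6 weeks replicate 2, 18 without control male 12 weeks replicate 2, 22 without DN female 12 weeks replicate 2 and 21 without DN male 12 weeks replicate 1. Of the 17 rule-named genes tested in both kinds of cells, 12 had the larger log2 fold change, by size, in TAL cells. For Cdkn1a it was 1.86 in TAL cells and 0.87 in DCT cells (interaction -1.20, adjusted p = 0.0156), and for Lpin2, a phosphatidate phosphatase, 1.25 and 0.07 (interaction -1.23). Clu had opposite signs, 0.75 in TAL cells and -0.44 in DCT cells (interaction -1.15, adjusted p = 5.08e-04). Ccng2, Arrdc3 and Hsd3b2 were of the same kind, with interactions of -1.33, -1.16 and -1.67. Fam107a fell by 1.16 in TAL cells against a value of 0.25 in DCT cells (interaction 1.40). The interaction of Cdkn1a lost its call in 6 of 21 settings, 4 of them without 1 control library (female replicate 2 of either age, male 6 weeks replicate 1 or male 12 weeks replicate 2), and those of Lpin2 and Hsd3b2 without control male 12 weeks replicate 2 (0.0660 for each) or DN male 12 weeks replicate 1 (0.0611 and 0.0952). Those of Fam107a and Hsd3b2 were lost without control female 6 weeks replicate 2 (0.0529 and 0.0556), Fam107a by DESeq2 too (0.163), and Hsd3b2 without DN female 6 weeks replicate 2 (0.0684) or DN male 6 weeks replicate 1 (0.0599). Slc30a2 was too low in TAL cells to be tested there alone (interaction 2.38, adjusted p = 0.00211): it was at 4.55 CPM in control and 1.59 CPM in DN TAL libraries on average, lower in DN in 7 of 8 pairs, against the rise in 8 of 8 pairs in DCT cells. Mt1 was called too, with an interaction of 0.72 (adjusted p = 0.0235), a call lost in 12 of 21 settings, 10 of them without a single library (adjusted p up to 0.104, without control female 12 weeks replicate 2).

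In TAL cells tested alone, 100 of 9145 genes were called over both ages, 44 higher and 56 lower in DN (1.09%), 6 at 6 weeks (0.0656%) and 15 at 12 weeks (0.164%). Many genes named for DCT cells were among the 100 and moved the same way. These were, beside Col5a2, Slit2, Adamtsl2 and Sult1a1, the higher genes Decr1 (0.67, adjusted p = 0.0122), Myof (0.65, 0.0154), Gdf15 (2.60, 0.00425), Tnfrsf12a (1.39, 9.50e-04), Fstl3 (0.67, 0.0394) and Dusp1 (1.43, 5.05e-04), and the lower genes Igfbp5 (-1.16, 0.0451), Keg1 (-1.54, 0.00365), Ugt2b38 (-2.05, 9.22e-05) and Fxyd4 (-1.36, 0.0103). Not called in TAL cells were Csrp1 (0.72, 0.258), Arhgdig (0.89, 0.201), Hsd11b2 (-1.29, 0.180), Kap (-1.45, 0.164) and Foxi1 (-0.01, 0.999). Sfrp1 (-0.72, 0.248), Cyp4b1 (-1.36, 0.121), Cdo1 (-0.36, 0.711), Angptl7 (-2.32, 0.0643) and Cyb5rl (0.39, 0.479) were not called there either. Npy, called lower in DCT cells at 12 weeks, had the other sign in TAL cells over both ages (1.28, 0.313) and was not called. All these TAL values are means over both ages, whereas Dusp1, Cyp4b1, Cdo1, Angptl7 and Npy were named for DCT cells by their 12-week calls without the block. For these genes the contrasts in DCT and TAL cells are unlike.

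For Col5a2, Slit2, Adamtsl2, Sult1a1 and Asb11 the segment difference was not called, which does not show that the effects were equal. Col5a2 was at 152 CPM in control TAL cells and 20.3 CPM in DN TAL cells on average, lower in DN in 8 of 8 pairs with a log2 fold change of -3.07, and the interaction was 0.93 (adjusted p = 0.390). Slit2 (163 and 100 CPM) and Adamtsl2 (13.6 and 4.13 CPM) were lower in DN TAL cells in 8 of 8 pairs as well, and Sult1a1 higher in 8 of 8. For Asb11 the TAL cells held 3.42 CPM in control and 5.76 CPM in DN, too few to be tested alone, and the interaction was 0.67 ± 0.44 (adjusted p = 0.831). In the other kept cells of the libraries, Col5a2 had a mean of 16.4 CPM in control and 8.70 CPM in DN.

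**Figure D5:**
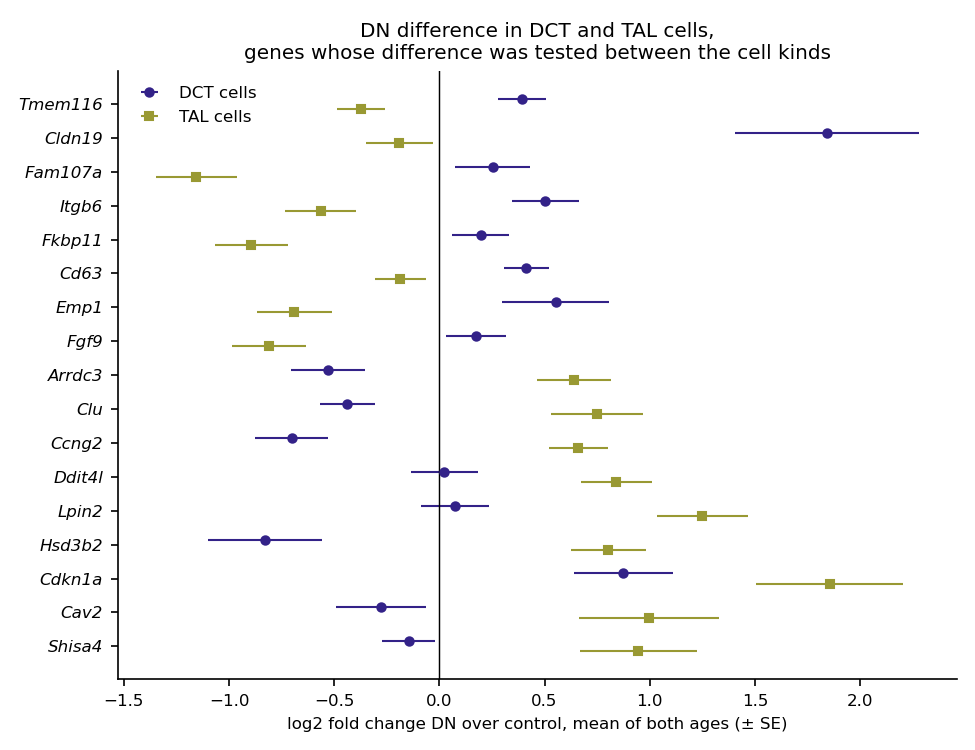
Log2 fold change of DN over control, averaged over both ages (point), with its SE (line), in DCT cells (circles) and TAL cells (squares), for the 17 of 20 rule-named genes of the segment interaction that were tested in both. Clu is at -0.44 in DCT and 0.75 in TAL cells, and Lpin2 is at 0.07 in DCT and 1.25 in TAL cells.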

How the data were processed

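The deposited matrices hold raw UMI counts per gene and barcode, which the authors made with Cell Ranger 3.0.2 against mm10; replicate mice were not pooled. Libraries were prepared with 2 versions of the 10x kit, and which library had which is not given in the sources used here. Library groups were taken from the labels. The DCT members and the gene lists were chosen with earlier results of these data known. Doublets were not called; the rule on 5 marker genes stood in for a caller.

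Counts were summed per library and tested with edgeR 4.0.16 in R 4.3.3 (TMM scaling, the filterByExpr filter with a minimum count of 10, all 16 libraries in 1 fit with sex within age, barcode list and genotype within age). DESeq2 1.42.0 was an alternative. The segment interaction kept the library as a block. Replicate numbers came from the labels: over 4921 genes above 20 CPM, same-numbered control and DN libraries of a sex and age deviated together from their group means (r = 0.662 and 0.510 in females, 0.463 and 0.368 in males, at 6 and 12 weeks). In females replicate 1 used the second barcode list and replicate 2 the first, in both genotypes. Their r therefore includes the difference between the lists and cannot show pairing beyond it. Nothing states that a number marks a shared day. The edgeR script was tested on simulated counts with known changes and the share script on simulated shares.

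For each edgeR comparison, with and without the block, the 10 called genes of smallest p in each direction are named, leaving out numbered Gm, Rik, mitochondrial and ribosomal protein genes and, for sex, Xist, Tsix and Y-linked genes. List members are given as counts with those called named. For the Pvalb split the rule took the 10 largest median log2 ratios in each direction among genes of at least 50 CPM. It kept only genes with the same direction in every library used. For DCT against other cells it took the 10 largest ratios among genes of at least 50 CPM. Genes named for the text alone, such as Cyb5rl and Sfrp1 over both ages without the block, were chosen after their values were seen. Shares were thinned to 1000 UMIs by their expected value. Gene positions are from GENCODE vM21 (GRCm38, the same assembly as mm10). The limit of 20% mitochondrial UMIs was not run for gene tests, because it left 170 DCT cells and at least 10 of them in 6 libraries. Without the block, p-values measure the spread between single mice, taken as independent. With the block they measure the spread of the DN differences between pairs. For the segment interaction they measure the spread, between libraries, of the difference between DCT and TAL cells.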

Additional observations from a re-analysis of the deposited data

Results flagged for a closer look

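In groups of 4 libraries of 1 genotype and age, 28 genes and shares were searched for a library far from the others, and 14 of 112 groups held one. The limit used flags about 5% of groups of normally distributed values. Low CPM values need not be distributed so, and the count cannot be read as an excess over chance. In the 12-week controls, Dusp1 was at 15.7 CPM in female replicate 2 against 11.5 to 11.9 CPM in the others, Decr1 at 58.9 CPM in female replicate 1 and Gdf15 at 1.98 CPM in male replicate 2 with the others at 0. In the 12-week DN mice, Cyp4b1 was at 8.63 CPM in male replicate 2, Npy at 9.81 CPM in female replicate 1, Gdf15 at 16.6 CPM in male replicate 1, and the thinned share of DCT cells with Pvalb at 59.7% in female replicate 1 against 72.8% to 74.3%. In the 6-week DN mice, male replicate 2, with 39 DCT cells, held 49.5 CPM of Hsd11b2 and 11.5 CPM of Ugt2b38, male replicate 1 held 22.1 CPM of Arhgdig and 21.5 CPM of Csrp1, the latter below the others, and female replicates held 35.7 CPM of Myof (replicate 2) and 22.2 CPM of Adamtsl2 (replicate 1). In the 6-week controls Arhgdig was at 12.7 CPM in male replicate 1.

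With the replicate block, the DN effect differed between 12 and 6 weeks (log2 difference, edgeR) for Txnip (0.78), Dusp1 (1.44), Ypel5 (1.10) and Pdk4 (1.69), and for Aqp1 (-4.92), Podxl (-4.92), H2-Q6 (-5.73), Synpo (-6.51), Dpp4 (-4.02) and Plat (-3.82).

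The DN effect differed between DCT and TAL cells, as a log2 interaction, upward in DCT cells for Tmem116 (0.76), Cldn19, a tight junction protein (2.07), Fam107a (1.40), Slc30a2 (2.38), Itgb6 (1.03), Fkbp11 (1.12), Cd63 (0.60), Cyp2j11 (2.18), Emp1 (1.31) and Fgf9 (1.07). It differed downward for Arrdc3 (-1.16), Clu (-1.15), Ccng2 (-1.33), Fetub (-5.33), Ddit4l (-0.79), Lpin2 (-1.23), Hsd3b2 (-1.67), Cdkn1a (-1.20), Cav2 (-1.21) and Shisa4 (-1.15). Of the 20, the calls of Tmem116, Slc30a2, Itgb6, Cd63, Arrdc3, Clu and Ccng2 were kept in each of 21 settings. The others were lost in at least 1: Shisa4 in 8 of 21, Cdkn1a in 6, Cav2 in 5, Fgf9 in 4, Emp1 and Cyp2j11 in 3, Fam107a, Fkbp11 and Lpin2 in 2, Cldn19 and Ddit4l in 1, and, of 20 settings, Hsd3b2 in 5 and Fetub in 3. Without control female 6 weeks replicate 2 the adjusted p was 0.137 for Shisa4 and Emp1, 0.115 for Fgf9, 0.0910 for Fetub and 0.0529 for Cav2 and Ddit4l. Without DN male 12 weeks replicate 1 it was 0.0611 for Cyp2j11 and 0.0515 for Fkbp11, and Cldn19 was lost by DESeq2 alone. Cldn19 in DCT cells was at most 14.7 CPM in any library.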

How the results depend on the processing

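Counts of called genes depended on the fit more than on the sign: of 81 pairs of a gene and a comparison called without the block and given in the text, 29 kept their call in every setting run for them, 52 lost it at least once and 0 changed direction. Genes called with the block alone were not recomputed under the other settings. At 6 weeks the 2 calls became 112 with the replicate block, 90 with no low-count filter, 1 without the barcode-list term, 1 with at least 10 UMIs of Slc12a3, 0 with Aqp2-positive cells kept (63 with the block as well), and 1 to 13 without single libraries. At 12 weeks the 13 became 106 (block), 145 (no filter), 3 (no barcode-list term), 5 (first list only), 6 (Aqp2-positive cells kept, 54 with the block) and 2 to 22. Over both ages the 57 became 287 (block), 224 (no filter), 24 (no barcode-list term), 284 (block with Aqp2-positive cells) and 22 to 78, the lowest without DN male 12 weeks replicate 1 and the highest without control male 6 weeks replicate 1. Calls for a DN effect that differed between 12 and 6 weeks, 0, became 10 (block), 44 (no filter), 1 (DESeq2) and 0 to 7. Those for sex, 53, became 245 (no filter), 29 (no barcode-list term) and 26 to 56. Those for age in controls, 1, became 73 (no filter), 2 (DESeq2), 0 (no barcode-list term) and 0 to 8. Those for DN by sex, 0, became 7 (no filter), stayed 0 with the block and were 0 to 0 without single libraries. The 38 segment differences became 140 (no filter), 13 (DESeq2), 23 (no barcode-list term) and 12 to 48. The cause of these moves was not tested. Sex and age lie between the pairs, so a block of pairs has no estimate for them. With each pair summed, 36 genes were called for sex. The comparison of ages in controls uses 1 library of each pair.

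The DCT share difference ranged from -0.699 to -0.1175 points without single libraries. That of the Pvalb share ranged from -1.715 to 3.447, reversed in 4 settings (-0.2247, -1.715, -0.3489 and -0.06971). The block changed no call of these shares. Keeping Aqp2-positive cells, leaving out the libraries of under 70 DCT cells (2 calls at 6 weeks, 65 over both ages), the summed pairs and the Pvalb split at 2000 UMIs were chosen after seeing the data. The limit of 20% mitochondrial UMIs was not run for gene tests or the Pvalb share. Depth limits low genes most: the smallest library sum was 322704 UMIs.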
